A study of Mus musculus with 8 samples.

Results

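*Msln*, *Upk1b*, *Upk3b*, *Upk3bl*, *Krt8*, *Krt18*, *Krt19*, *Ppbp* and *Serpinb9b* are 9 of the 24015 genes in a table of RNA-seq read counts from 8 mouse brain libraries. They were taken from the table by symbol, and all 9 had a row. The set was chosen by its measured counts, which were high in both WT libraries and low in the remaining 6. Levels of these genes in WT against the other genotypes are therefore given as a description, with no test.

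The study examined a deletion of 1b, a non-coding interval of the sodium channel gene *Scn1a*, in mice of the inbred strain C57BL/6N. One deletion line was made by Cas9 editing of oocytes and crossed to WT mice of the same strain. The mice were sampled at postnatal day 7 (P7) and were not treated. The 2 WT mice were male and had 0 deleted alleles. Of the 4 1b+/- mice, with 1 deleted allele, replicates 1 and 2 were male and replicates 3 and 4 female. The 2 1b-/- mice, with 2 deleted alleles, were female. WT and 1b-/- thus differed in sex as well as genotype, and the 2 cannot be told apart in that comparison. The sample labels give hippocampus as the tissue and the study's methods give forebrain, so which of them was dissected is not known. Each library is labelled as 1 animal, and replicate numbers follow the order of deposit and pair no animals.

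Mesothelium is the flat simple epithelium that lines the body cavities, and mesothelin (*Msln*) is its best-known surface protein. Uroplakins are membrane proteins of the bladder lining, where they assemble into rigid plaques, and some of them are also made by mesothelium. Keratins 8, 18 and 19 form the intermediate filaments of simple epithelia. Brain tissue contains no mesothelium or urothelium, and its own epithelium-like layers are the choroid plexus, the ependyma and the arachnoid barrier.

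Total counts ranged from 2947770 (1b+/- replicate 4) to 20878772 (1b+/- replicate 3), and were 12575229 and 6742864 in WT replicates 1 and 2. Levels are given as CPM, read counts scaled to a common library size after adjustment for composition by the TMM method of edgeR. With 3 counts as the limit that a count of 0 allows, the limit ranged over libraries from 0.145 to 1.0 CPM. *Scn1a*, the targeted gene, was at 40.5 to 45.1 CPM in WT, 15.7 to 26.7 CPM in 1b+/- and 2.0 to 3.18 CPM in 1b-/-, in the order of the labels. Forebrain markers were present in 8 of 8 libraries, at a summed level of 1427 to 3004 CPM. Intervals and limits cover counting error only and leave out variation between animals. Whether duplicate reads of 1 molecule were counted separately is not given in the sources used here. If they were, the intervals are too narrow.

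The genes are spread over several chromosomes, placed here in the mm9 build. *Msln* is on the minus strand of chromosome 17 (chr17:25885559-25891272) and *Upk1b* on the minus strand of chromosome 16 (chr16:38773297-38800316). *Upk3b* (chr5:136514366-136521173) and *Upk3bl* (chr5:136530362-136540196, annotated as 2310043J07Rik) are neighbours on the plus strand of chromosome 5, 9188 bases apart. *Krt8* (chr15:101827142-101834773, minus strand) and *Krt18* (chr15:101858647-101862457, plus strand) are 23873 bases apart on chromosome 15. *Krt19* is on the minus strand of chromosome 11 (chr11:100002124-100009979), 4860 bases from *Krt15*. *Ppbp* is on chromosome 5 (chr5:91197544-91199086) and *Serpinb9b* on chromosome 13 (chr13:33119285-33133753), both on the plus strand.

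Reads were 50 bases long, and the exons of these genes were compared with the genome in windows of that length. Of the *Krt8* windows, 54.5% had an exact match elsewhere in mm9, so *Krt8* counts depend on how reads with several matches were treated, which is not given in the sources used here. The corresponding share was 0.74% for *Krt18*, 0.25% for *Serpinb9b* and 0 for the other 6 genes. *Upk3b* and *Upk3bl* therefore shared no window, and no exon of a member overlapped an exon of another gene.

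Promoter sequences were available for 6 of the 9 genes in the RefSeq-derived table (GRCm38.p6). Those of the neighbouring keratins, the neighbouring uroplakins and *Ppbp* are shown. That of *Serpinb9b* is not shown and held none of the motifs searched below. Each is the 100 bases before the transcription start, read 5′ to 3′ on the strand of the gene. Capitals mark the TATA box letters TATAAA.
*Krt8* (chr15:102004343-102004442, minus strand): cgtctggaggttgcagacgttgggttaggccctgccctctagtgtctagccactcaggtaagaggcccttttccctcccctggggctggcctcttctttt
*Krt18* (chr15:102028116-102028215, plus strand): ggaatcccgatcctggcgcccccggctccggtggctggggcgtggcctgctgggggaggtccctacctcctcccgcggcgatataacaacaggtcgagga
*Upk3b* (chr5:136038396-136038495, plus strand): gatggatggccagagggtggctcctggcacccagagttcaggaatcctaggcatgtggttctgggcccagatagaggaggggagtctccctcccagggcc
*Upk3bl* (chr5:136057167-136057266, plus strand): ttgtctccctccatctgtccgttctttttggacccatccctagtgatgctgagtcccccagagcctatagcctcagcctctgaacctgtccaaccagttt
*Ppbp* (chr5:90768418-90768517, plus strand): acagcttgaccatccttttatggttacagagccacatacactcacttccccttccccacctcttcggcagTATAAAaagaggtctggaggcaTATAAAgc

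Motifs were searched on both strands of the 250 bases before the start. TATAAA was found in 1 of the 6 promoters, that of *Ppbp*, and in 12.4% of the 32851 promoters in the table. TGANTCA, the site read by AP-1 factors, was also found in that of *Ppbp*, against 6.75% of all promoters. GGAATG, the site read by TEAD factors, was found in those of *Upk3b* and *Ppbp*, against 12.6%. GGGCGG was found in 0 of 6, against 32.7%. A match describes the letters of this window and not a bound site.

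*Msln* encodes a surface protein of mesothelial cells held by a lipid anchor. It was at 13.1 and 4.29 CPM in WT (159 and 28 counts), at 0.198, 0.101, 0.339 and 0 CPM in 1b+/- (11 counts in all) and at 0.490 and 0.501 CPM in 1b-/- (6 counts in all). Both WT libraries were above the other 6, and the lower WT value was 8.57 times the highest of those 6. The WT mean was 8.72 ± 6.26 CPM (SD, n = 2).

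Of the uroplakins, *Upk1b* encodes a tetraspanin that partners the single-span uroplakins in the bladder plaque. Its level was 17.3 and 5.67 CPM in WT (209 and 37 counts), 0.594, 0.202, 0.0969 and 0 CPM in 1b+/- and 0.857 and 0.250 CPM in 1b-/-. *Upk3b*, a single-span uroplakin, was at 6.61 and 3.06 CPM in WT (80 and 20 counts), 0.132, 0.303, 0 and 0.334 CPM in 1b+/- and 0.122 and 0 CPM in 1b-/-. *Upk3bl*, its neighbour and relative, was at 6.28 and 1.99 CPM in WT (76 and 13 counts). In the other 6 libraries *Upk3bl* held 4 counts, all of them in 1b+/- replicate 3 (0.194 CPM). The lower WT library exceeded the highest of the other 6 by 6.62 times for *Upk1b*, 9.18 times for *Upk3b* and 10.3 times for *Upk3bl*.

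*Krt8* and *Krt18* encode the type II and type I keratins that pair with each other in simple epithelia, and *Krt19* is a further type I keratin. *Krt8* was at 19.3 and 6.13 CPM in WT, 0.330, 1.01, 0.388 and 1.67 CPM in 1b+/- and 0.857 and 0.250 CPM in 1b-/-. *Krt18* was at 13.1 and 7.20 CPM in WT, 2.71, 0.505, 0.582 and 2.67 CPM in 1b+/- and 1.1 and 2.50 CPM in 1b-/-. Of the 9 genes, *Krt18* had the highest level outside WT and the smallest distance between groups, with a lower WT value 2.66 times the highest other value. *Krt19* was at 18.3 and 7.36 CPM in WT, 1.52, 0.404, 0.242 and 0 CPM in 1b+/- and 0.245 and 0 CPM in 1b-/-. Its highest value outside WT was in 1b+/- replicate 1 (23 counts), which was also the library with the most *Krt18* outside WT (41 counts).

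*Ppbp* encodes pro-platelet basic protein, a CXC chemokine stored in platelets. It was at 45.1 and 10.7 CPM in WT (545 and 70 counts), 0.528, 1.21, 0.533 and 0 CPM in 1b+/- and 0.979 and 0.501 CPM in 1b-/-. *Serpinb9b* encodes an intracellular protease inhibitor of the clade B serpins. It was at 10.6 and 2.45 CPM in WT (128 and 16 counts), 0.396, 0.101, 0.485 and 0 CPM in 1b+/- and 0.367 and 0 CPM in 1b-/-. The lower WT value was 8.85 times the highest other value for *Ppbp* and 5.06 times for *Serpinb9b*.

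**Figure D1:**
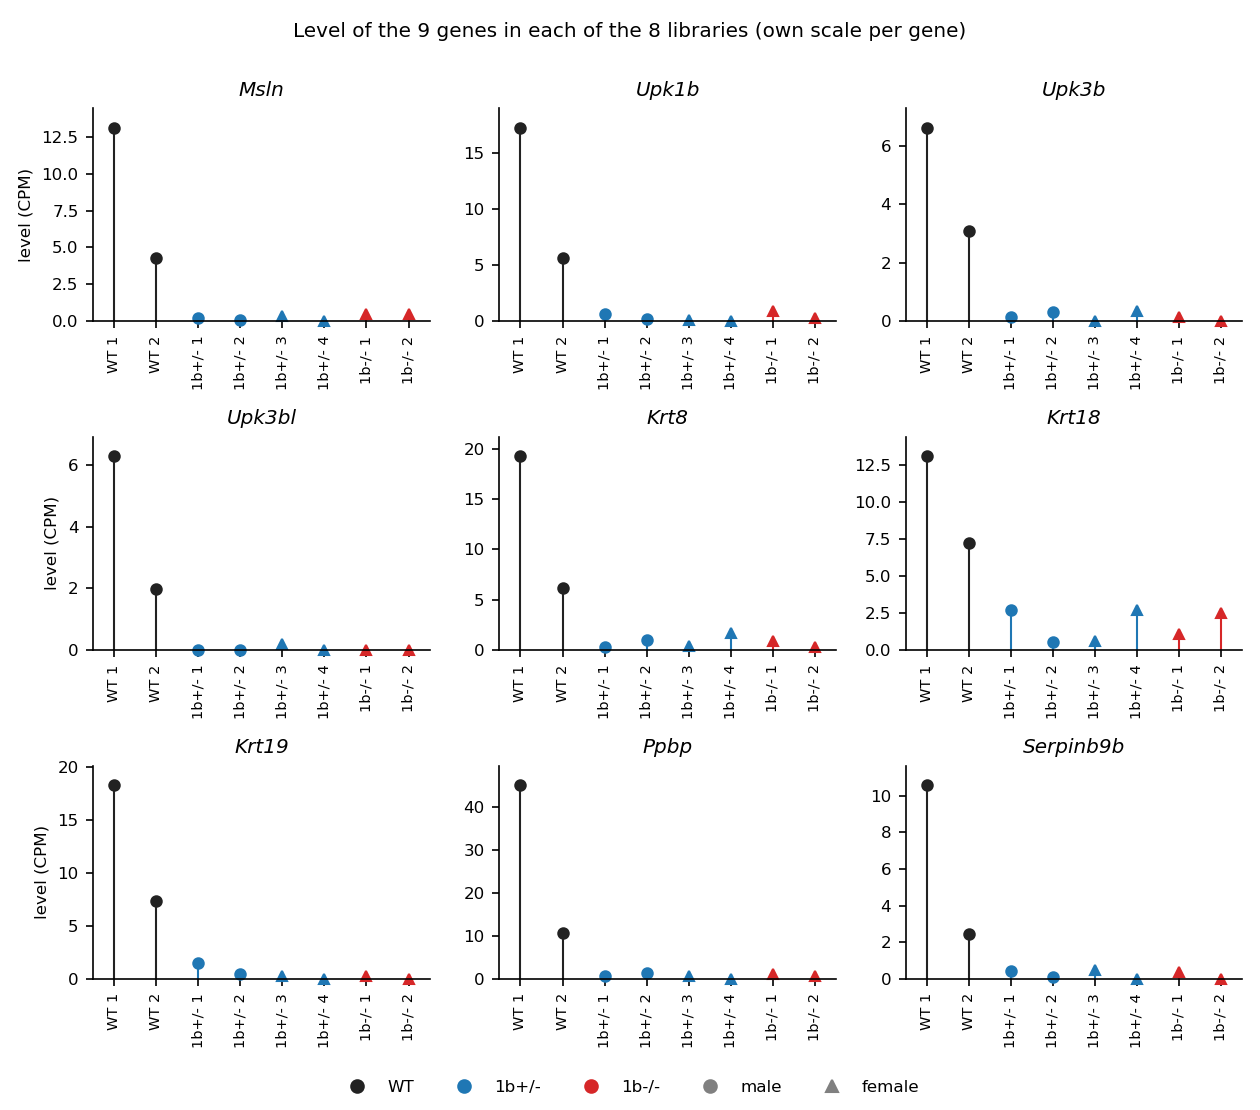
Level of each of the 9 genes (CPM, vertical axis from 0, own scale per gene) in each library (horizontal axis), with circles for males, triangles for females and colours for genotype. WT replicate 1 is highest and WT replicate 2 second for each gene, and *Krt18* is the gene with the most signal in the other 6 libraries.

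Both WT libraries were above the other 6 for 9 of 9 members. This order chose the genes, and 480 of 15588 tested genes (3.08%) had it. Of 54 member values in the 6 libraries outside WT, 14 were 0 and 29 were at or under 3 counts. The WT mean was 6.04 times the mean of the other 6 for *Krt18*, 16.9 times for *Krt8* and 29.0 to 44.6 times for 6 further genes. For *Upk3bl* the factor was 128, and it rested on 4 counts outside WT. Single libraries moved these factors. Without WT replicate 1 they were 4.29 for *Krt18*, 8.16 for *Krt8*, 61.6 for *Upk3bl* and 10.9 to 20.6 for the other 6 genes. Without WT replicate 2 the log2 of the factor changed from 5.48 to 6.17 for *Ppbp*, 4.86 to 5.56 for *Serpinb9b*, 4.08 to 4.68 for *Krt8*, 5.01 to 5.6 for *Msln*, 5.11 to 5.70 for *Upk1b* and 7.0 to 7.60 for *Upk3bl*. Without 1b+/- replicate 1 it changed from 5.0 to 6.17 for *Krt19*. In bulk tissue, fewer cells of a type and less RNA per cell cannot be told apart.

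Per length of exon, *Ppbp* had the highest mean level in WT at 25.8 CPM per kilobase. *Krt8*, *Krt18*, *Krt19* and *Upk1b* lay at 9.33 to 10.7 CPM per kilobase in WT replicate 1 and at 3.21 to 5.14 in WT replicate 2, in a different order in each, so these 4 levels were not separated beyond the spread between animals. All exons of *Krt8* entered its length, although 54.5% of its windows had a match elsewhere. Its place per length, in WT or outside, is therefore uncertain, since the treatment of such reads is not given. *Msln* (4.12), *Upk3bl* (3.18), *Upk3b* (2.06) and *Serpinb9b* (2.0) had lower mean levels in WT, in CPM per kilobase. Outside WT, the highest mean level per length was that of *Krt18* (1.20 CPM per kilobase), followed by *Ppbp* (0.579) and *Krt8* (0.416).

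The 2 WT animals differed from each other. The summed level of the 9 genes was 149.6 CPM in WT replicate 1 (95% exact Poisson interval 143 to 157, 1809 counts) and 48.9 CPM in WT replicate 2 (43.7 to 54.6, 319 counts), a ratio of 3.06. The 1b+/- libraries held 6.40, 3.84, 2.86 and 4.67 CPM, and the 1b-/- libraries 5.02 and 4.01 CPM. WT replicate 2 was thus 7.64 times the highest library outside WT. The WT mean was 22.2 times the mean of the other 6, 10.9 times that mean with WT replicate 1 left out and 33.5 times with WT replicate 2 left out. Against the 2 male 1b+/- libraries alone, so within 1 sex, the WT mean was 19.4 times as high.

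The genes were chosen by their counts in these same libraries, so their ratios are a description, and nothing is read from the shares over all genes set beside them. Each member was higher in WT replicate 1 than in WT replicate 2, against 50.2% of tested genes. The ratio was 2 or more for 8 of 9 members, against 6.7% of tested genes. It was lowest for *Krt18* (1.81, 95% exact binomial interval 1.30 to 2.57) and *Upk3b* (2.16, 1.31 to 3.72). It was highest for *Ppbp* (4.20, 3.27 to 5.47) and *Serpinb9b* (4.32, 2.56 to 7.78). The median was 3.06 over the members and 0.997 over tested genes with counts in both libraries.

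The make-up of the sum was close in the WT libraries for most members. *Upk1b* took 11.6% of the members' counts in each WT library and *Msln* took 8.79% and 8.78%. The exact binomial intervals of the share overlapped for 7 of 9 members. The exceptions were *Krt18*, with 8.73% (7.47 to 10.1) in WT replicate 1 and 14.7% (11.03 to 19.1) in WT replicate 2, and *Ppbp*, with 30.1% (28.02 to 32.3) and 21.9% (17.5 to 26.9). In the other 6 libraries pooled, *Krt18* took 32.1% (26.5 to 38.1), an interval apart from both WT libraries. *Ppbp* took 15.5% (11.3 to 20.4), an interval that overlapped WT replicate 2 but not WT replicate 1. The pooled intervals overlapped those of both WT libraries for *Krt8* (13.6%), *Krt19* (12.8%), *Upk1b* (7.92%), *Serpinb9b* (7.55%), *Msln* (6.42%), *Upk3b* (2.64%) and *Upk3bl* (1.51%).

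**Figure D2:**
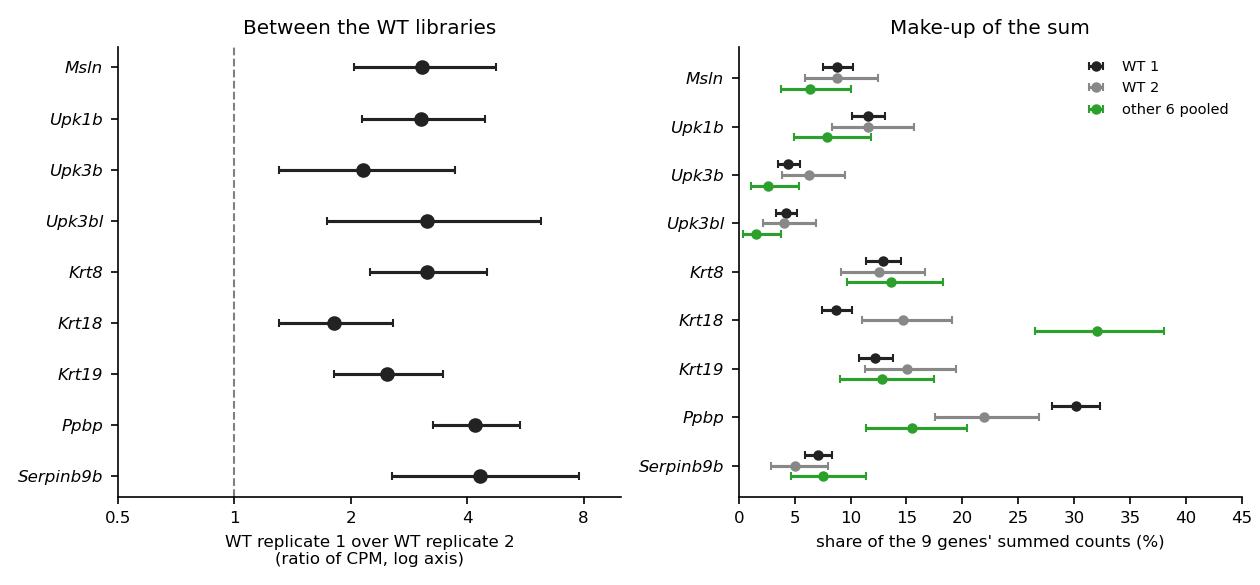
Left, ratio of WT replicate 1 to WT replicate 2 per gene (log axis) with its 95% exact interval, and a dashed line at the median of all tested genes. Right, share of each gene in the members' summed counts (%) with 95% exact intervals in WT replicate 1, WT replicate 2 and the other 6 libraries pooled. The 9 ratios lie between 1.81 and 4.32, and *Krt18* and *Ppbp* are the genes whose shares differ between the WT libraries.

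Comparison of 1b-/- with 1b+/- asked whether the members differed with the number of deleted alleles in the libraries outside WT. The 1b-/- mice were all female and the 1b+/- mice of both sexes, so sex is partly mixed into this comparison. Only *Krt8*, *Krt18*, *Krt19* and *Ppbp* reached the filter of 1 CPM in a library outside WT. The other 5 members entered the fit through their WT counts alone, so results are given for these 4 only, as a description. All 8 libraries entered the fit, so its estimate of spread drew in part on the WT values that chose the genes. The genes were also chosen as low in the 6 libraries compared here, which limits any difference between them. With edgeR's quasi-likelihood test and Benjamini-Hochberg adjustment over 15588 genes, 0 of the 4 were called, against 1 gene of all (0.00642%). At an unadjusted p under 0.05 the edgeR count was 0 of 4 and 192 of all genes, and the likelihood ratio test of edgeR and the Wald test of DESeq2 also called 0 of 4. With only the 1b-/- and 1b+/- libraries in the fit, edgeR called 0 of the 4 as well.

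The differences were poorly resolved. The log2 fold change in 1b-/- was 0.01 (SE 0.73) for *Krt8*, 0.20 (SE 0.75) for *Krt18* and 0.32 (SE 0.94) for *Ppbp*, with a Benjamini-Hochberg adjusted p of 0.99998 by edgeR for each. As a ratio of summed counts, these were 1.14 (95% exact binomial interval 0.450 to 2.58) for *Krt8*, 1.15 (0.653 to 1.94) for *Krt18* and 1.29 (0.565 to 2.7) for *Ppbp*. For *Krt8*, a change of 2-fold in either direction lies within this interval. Directions turned with single animals. Without 1b-/- replicate 1 the log2 fold change was -0.35 for *Ppbp* and -1.29 for *Krt8*, and without 1b-/- replicate 2 it was -0.39 for *Krt18*. It was also negative for *Krt18* without 1b+/- replicate 2 (-0.09) or 3 (-0.18), and for *Krt8* without WT replicate 1 (-0.10) or 2 (-0.0008) or 1b+/- replicate 1 (-0.23) or 3 (-0.29).

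For the other members only counting ratios are given. *Msln* held 6 counts in 1b-/- and 11 in 1b+/-, a ratio of 2.18 (0.663 to 6.44), and *Upk1b* held 8 and 13, a ratio of 2.46 (0.885 to 6.41). *Krt19* and the remaining 3 had at most 3 counts in 1b-/-. *Upk3b* held 1 count in 1b-/- and 6 in 1b+/- (ratio 0.667, 0.0145 to 5.50), and *Serpinb9b* held 3 and 17 (0.706, 0.133 to 2.44). *Krt19* held 2 counts in 1b-/- and 32 in 1b+/-, a ratio of 0.250 (0.0290 to 0.980). In 1b+/-, 27 of its counts were in males, and both 1b-/- mice were female. Its level was 0.164 CPM in 1b-/- and 0.212 CPM in 1b+/- females. Of those 32 counts, 23 were in 1b+/- replicate 1, and the 1b-/- values (0.245 and 0 CPM) lay within the range of the other 1b+/- libraries (0 to 0.404 CPM). *Upk3bl* held 0 counts in 1b-/- and 4 in 1b+/- (0.0822 CPM). A limit of 3 counts over both 1b-/- libraries is 0.247 CPM, so no difference was detectable at this depth.

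Females and males were compared within 1b+/- (n = 2 each), because sex and genotype overlap fully between WT and 1b-/-. The edgeR fit is given again for *Krt8*, *Krt18*, *Krt19* and *Ppbp* only, because the other members entered it through WT. It called 0 of 4, against 5 of 15588 genes (0.0321%). WT values entered this estimate of spread too, and the genes were chosen as low in the 1b+/- libraries, so the result is a description. *Krt19* was the gene of these 4 with an unadjusted edgeR p under 0.05 (0.0391, adjusted p 0.99989), with a log2 fold change of -2.25 (SE 0.96) in females. Its values were 0.242 and 0 CPM in females and 1.52 and 0.404 CPM in males, and the 0 was in 1b+/- replicate 4, where a count of 0 allows up to 1.0 CPM, so the groups were not shown to be apart. Without 1b+/- replicate 1 that change was -0.92. The likelihood ratio test and DESeq2 called 0 of 4 as well. *Krt18* had a counting ratio of 0.461 (0.258 to 0.795), yet its male (2.71 and 0.505 CPM) and female (0.582 and 2.67 CPM) values covered the same range. For *Msln* (ratio 1.86, 0.472 to 8.64), *Krt8* (0.919, 0.402 to 2.07), *Ppbp* (0.583, 0.252 to 1.28) and *Serpinb9b* (1.51, 0.520 to 4.69) the intervals included 1. That of *Upk1b* did not, at 0.193 (0.0208 to 0.883), with 2 counts in females and 11 in males, of which 9 were in replicate 1. *Upk3b* held 1 count in females and 5 in males (0.212, 0.00448 to 1.90), and *Upk3bl* held 4 and 0.

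**Figure D3:**
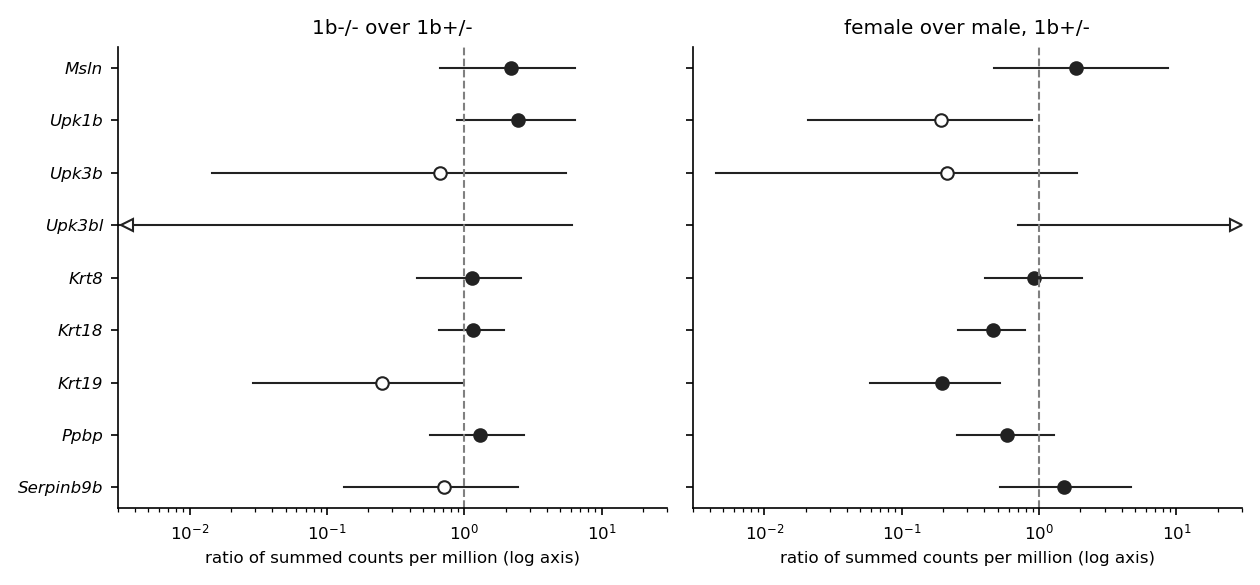
Ratio of summed levels (log axis) of 1b-/- to 1b+/- (left) and of females to males within 1b+/- (right) for each gene, with 95% exact binomial intervals of counting error. Filled points have over 3 counts in both groups, open points have 3 or fewer in a group, and arrows mark *Upk3bl*, which held 0 counts in 1 group of each comparison; most intervals cross the dashed line at 1.

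The names of the set were examined against marker lists of the cell types they recall. Mesothelium has further defining genes, and 6 of those on the list were tested. Both WT libraries were above the other 6 for 0 of 6, and the summed level of the list was 18.7 and 27.4 CPM in WT, 29.95 to 34.5 CPM in 1b+/- and 36.2 and 20.8 CPM in 1b-/-. *Aldh1a2*, a retinoic acid synthesis enzyme also made by meninges, supplied most of that sum and was at 8.35 and 21.3 CPM in WT against 13.5 to 29.7 CPM elsewhere. *Wt1*, a transcription factor of mesothelium, was at 3.39 and 1.07 CPM in WT and 0.334 to 1.51 CPM elsewhere, so WT replicate 2 lay within the others. *Lrrn4* and *Bnc1* were at or under 1.24 CPM in 8 of 8 libraries. These markers did not set the WT libraries apart, and the 9 genes are not assigned to mesothelium. Only the keratins and uroplakins among them are called epithelial here, by what they encode, and the name does not cover *Ppbp* and *Serpinb9b*.

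Urothelium was examined in the same way, with 10 listed genes of which 6 were tested. The uroplakins *Upk1a*, *Upk2* and *Upk3a*, which complete the bladder plaque, and *Krt20*, a keratin of its surface cells, were at or under 0.490 CPM in 8 of 8 libraries. *Krt7*, a keratin of simple and transitional epithelia, was at 18.1 and 5.67 CPM in WT and 0.291 to 2.24 CPM elsewhere, and *Psca*, a surface protein of epithelia, at 1.74 and 1.07 CPM in WT and 0 to 0.490 CPM elsewhere. These were the 2 listed genes that were higher in both WT libraries. *Gata3* was highest in 1b+/- replicate 1 at 16.8 CPM, against 4.13 and 0.460 CPM in WT.

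General genes of epithelial junctions and polarity followed the members less closely. Of 10 tested, *Cldn4* and *Spint1* were above the other 6 in both WT libraries. *Cldn4*, a tight junction protein, was at 2.48 and 1.23 CPM in WT and 0 to 0.334 CPM elsewhere. The summed list was at 44.2 and 39.2 CPM in WT and at 47.9 CPM in 1b+/- replicate 1, where *Cdh1*, the epithelial cadherin, was at 33.7 CPM against 21.5 and 27.4 CPM in WT.

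Stratified epithelium, the layered lining of skin and mouth, was the list that moved most with the members. Its 17 genes summed to 305 and 65.1 CPM in WT, 21.8 to 31.3 CPM in 1b+/- and 29.3 and 26.3 CPM in 1b-/-. Both WT libraries were above the other 6 for 7 of 17 genes, and 16 of 17 were higher in WT replicate 1 than in WT replicate 2. By edgeR, 6 listed genes that are no member were lower in 1b+/- than in WT, *Krt13*, *Krt15*, *Krt6a*, *Mal* and *Scel* from this list and *Tph1* from the pineal list. Over all 15588 genes 13 were called (0.0834%). Besides the 6 listed genes these were members, whose WT values chose them, so their calls were fixed by that choice and are no result. The count of 13 is therefore no separate background, and no enrichment is read from it. The median log2 fold change over the 17 genes was -2.76, against 0.01 over all tested genes. These calls were known when the lists were written and are no independent evidence. In 1b-/- against WT edgeR called 0 of 97 listed genes that are no member, against 1 of 15588 (0.00642%), with 10 of the 17 stratified genes and 255 of all 15588 at an unadjusted p under 0.05. The count of listed genes there was 6 by likelihood ratio, 5 by DESeq2, 8 with no filter and 6 without WT replicate 2. The listed count in 1b+/- against WT was 0 without WT replicate 1, without 1b+/- replicate 3 or without 1b+/- replicate 4, and 2 without 1b+/- replicate 1. It was also 0 with sex as a covariate and in males only.

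*Krt15* and *Krt13*, type I keratins of basal and of mucosal layers, lie beside *Krt19* and were at 36.6 and 8.73 CPM and at 30.4 and 4.29 CPM in WT. Outside WT they did not exceed 2.63 and 1.62 CPM. *Mal*, a membrane protein of myelin and of epithelia, was at 95.2 and 17.8 CPM in WT and 3.44 to 6.14 CPM elsewhere. *Krt4*, the usual partner of *Krt13*, differed between the WT libraries, at 28.7 CPM in WT replicate 1 and 0.153 CPM in WT replicate 2. *Sprr3*, a protein of the cornified envelope, was likewise at 6.95 and 0 CPM. Both lay outside the order shared by the 9 members.

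*Ppbp* was high without the other platelet genes. Of 8 tested platelet and megakaryocyte genes, *Gp1ba* was above the other 6 in both WT libraries, by a margin of 2.15 against 2.11 CPM. The summed list was 16.3 and 19.8 CPM in WT, 16.4 to 21.1 CPM in 1b+/- and 17.1 and 14.3 CPM in 1b-/-. *Pf4*, the platelet chemokine encoded next to *Ppbp*, was at 0.992 and 1.53 CPM in WT and 1.25 to 3.18 CPM elsewhere. The defining platelet genes *Gp9* and *Treml1* were at or under 0.334 CPM in 8 of 8 libraries. *Cxcl5*, *Cxcl1*, *Cxcl2*, *Cxcl3* and *Cxcl15*, other CXC chemokines, were at or under 0.505 CPM in 8 of 8. Erythroid and neutrophil lists had 1 of 5 and 0 of 3 tested genes above in both WT libraries.

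*Serpinb9b* was high without its relatives. Of 5 tested clade B serpins, 0 were above the other 6 in both WT libraries. *Serpinb9*, the mouse granzyme B inhibitor, was at 4.30 and 3.22 CPM in WT and 2.25 to 6.20 CPM elsewhere, and *Serpinb6a* at 26.4 and 21.3 CPM in WT and 18.4 to 30.5 CPM elsewhere. The other genes of the *Serpinb9* family (*Serpinb9c* to *Serpinb9g*) were at or under 0.612 CPM in 8 of 8 libraries.

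Epithelium-like and covering tissues of the brain were examined as well. Choroid plexus genes summed to 1059.8 and 1114 CPM in WT. They also reached 1069.7 CPM in 1b+/- replicate 4, where the members summed to 4.67 CPM, and 936 CPM in 1b-/- replicate 2, where they summed to 4.01 CPM. Meningeal fibroblast genes summed to 439 and 684 CPM in WT, 663 to 1739 CPM in 1b+/- and 813 and 511 CPM in 1b-/-. Arachnoid barrier genes summed to 29.5 and 36.8 CPM in WT and 17.4 to 49.2 CPM elsewhere. Of 16 lists, the summed level was above the other 6 in both WT libraries for 2, stratified epithelium and pineal. The pineal sum was 6.53 and 8.73 CPM in WT and rested on *Tph1*, a serotonin synthesis enzyme, at 5.37 and 6.74 CPM, which unlike the members was higher in WT replicate 2. The pituitary list and the airway and nasal list had 0 of 1 and 0 of 3 tested genes above in both WT libraries. The part of any of these tissues in the levels of the members was not tested.

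**Figure D4:**
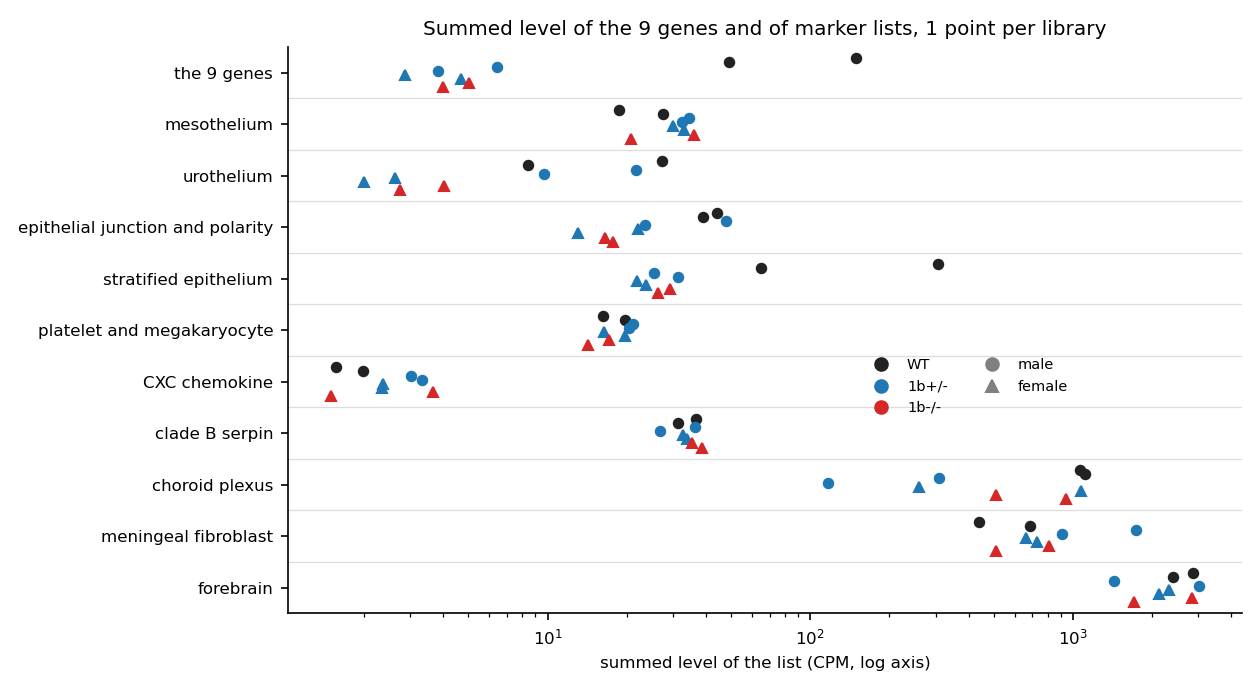
Summed level (CPM, log axis) of the 9 genes and of 10 marker lists, with 1 point per library, circles for males, triangles for females and colours for genotype. The WT points stand to the right of the other 6 for the 9 genes and for stratified epithelium, whereas for mesothelium, platelets, CXC chemokines and clade B serpins they lie among or below the others.

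The genes most like the members were sought by profile overlap, the percentage of a gene's summed CPM that falls in the same libraries as the mean profile of the 9. That mean profile had 66.3% in WT replicate 1, 22.6% in WT replicate 2 and 1.42% to 2.64% in each other library. Members overlapped it by 76.7% (*Krt18*) to 95.6% (*Upk1b*), which their part in the profile raises, and the median of 14738 genes with at least 50 counts was 36.0%. The 10 closest other genes were *Krt15* (90.7%), *Mal* (90.1%), *Scel* (88.8%), *Plet1* (86.6%), *Krt13* (86.4%), *Krt6a* (86.1%), *Krt7* (85.1%), *Dmkn* (84.6%), *Dsc1* (82.5%) and *Klk7* (82.2%). Among these, *Dsc1* encodes a desmosomal cadherin and *Klk7* a protease of the epidermis. The 8 libraries are the points of this measure, and 2 of them carry most of each profile.

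**Figure D5:**
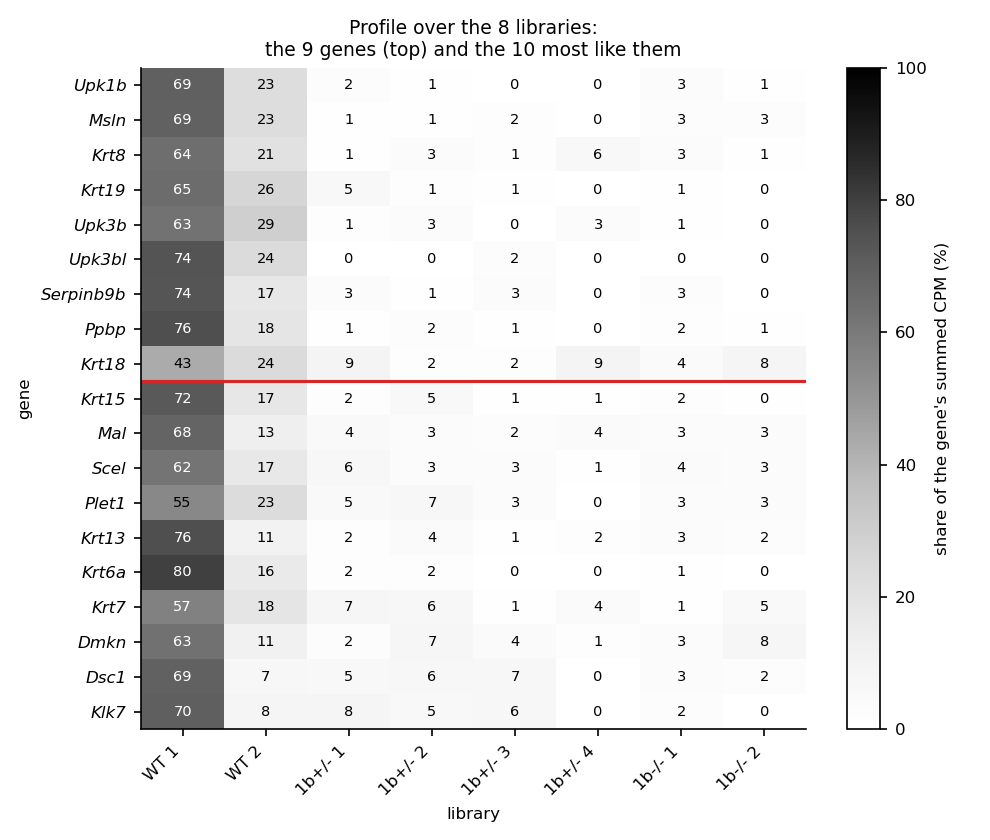
Share of each gene's summed CPM (%, grey scale and printed values) in each of the 8 libraries, for the 9 genes above the red line and the 10 most like them below it. WT replicate 1 holds the largest share in every row, and *Krt18* is the member with the least in it.

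With a WT mean at least 4-fold above the mean of the other 6 added to the order of libraries, 40 tested genes remained, of which 9 were the members. Of the 31 others, 9 were on the epithelial lists. Of 15588 tested genes, these lists held 6 (mesothelium), 6 (urothelium), 10 (junction and polarity) and 17 (stratified epithelium). The lists were written with these results known, so nothing is read from the count. Genes near the members in the genome were mostly not among those with both WT libraries on top. Of all tested genes, 3.08% had that order, so nothing is read from the low counts near the members. Within 200000 bases the order held for 0 of 22 tested genes around *Msln*, 0 of 4 around *Upk1b*, 0 of 12 around *Krt8*, 0 of 3 around *Ppbp* and 0 of 4 around *Serpinb9b*. It held for *Krt13* and *Krt15* among 6 around *Krt19*, and for *Hspb1* and *Ywhag* among 12 around *Upk3b*.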

How the data were processed

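RNA from P7 brain of 8 C57BL/6N mice was sequenced by the authors from stranded poly(A) libraries (50-base single reads), aligned to mm9 with STAR 2.7.2 and counted per gene with featureCounts. The annotation release, the use of strand and the handling of reads with several matches are not given in the sources used here. The deposited values are whole-number counts, not normalized, and all 8 columns were used.

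The 15588 genes that reached 1 CPM in 1 or more libraries were tested with edgeR 4.0.16 in R 4.3.3, by quasi-likelihood with TMM scaling, all 8 libraries in 1 fit and a Benjamini-Hochberg threshold of 0.05. Females and males were compared in a second model that treated the sexes of 1b+/- as groups. The alternatives changed the filter (none, or filterByExpr), the scaling (RLE or upper quartile), the test (likelihood ratio in edgeR, or the Wald test in DESeq2 1.42.0), the covariates (sex) and the samples (compared groups, 1 sex, or each library left out). The tests were tried on simulated data with 200 changed genes per comparison. Those genes were picked by a minimum mean count, so the simulation does not cover the low counts of most members outside WT. Total counts of 2947770 to 20878772 set the precision. If libraries were not separate animals, p-values would measure technical spread.

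The 9 genes and the marker lists were chosen with earlier results of these data known. The text names the 9 genes, listed genes past the threshold or else up to 4 per list by mean CPM, and the 10 genes of most similar profile. Defining markers and other genes beyond that rule were chosen after their values were seen. Positions came from GENCODE vM1 (mm9), and repeated windows were found with BLAST 2.17.0.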

Additional observations from a re-analysis of the deposited data

Results flagged for a closer look

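*Upk3bl* in 1b+/- was marked because 1 library stood apart from the other 3. Its 4 counts were all in replicate 3, so the gap to the nearest library was 1.0 of the whole range, over the limit that Dixon's test sets for 4 libraries. Replicate 3 was the deepest library, and its 0.194 CPM was below the levels that a count of 0 allows in replicates 1, 2 and 4 (0.198, 0.303 and 1.0 CPM), so no library was shown to stand apart. The summed neutrophil list in 1b+/- was marked for the same reason, with a gap of 0.948 of the range. It was at 4.54 CPM in replicate 2 and at 2.57, 2.57 and 2.67 CPM in replicates 1, 3 and 4. Of 36 measures examined in this way, 2 passed the limit, and chance gives about 1 in 20, or 1.8.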

How the results depend on the processing

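No paired analysis was possible because the labels give no replicate numbers that the groups share. With 2 WT and 2 1b-/- animals and member levels near 0 outside WT, differences between 1b-/- and 1b+/- were mostly not detectable at this depth. Of the alternatives, 372 values were labelled unchanged, 31 moved and 23 turned. For fold changes unchanged meant the same direction and side of the threshold, and for counts of calls a value within a set factor. The label is loose, since the summed members' ratio of 22.2 was labelled unchanged at 10.9 without WT replicate 1. It also covers the order of WT above the other 6, which chose the genes. Fold changes of *Msln*, *Upk1b* and *Serpinb9b* are among the labelled values too, although these genes entered the fits through WT alone, and nothing is read from them. In 1b+/- against WT the 13 calls became 57 with no filter, 64 by likelihood ratio, 24 by DESeq2 and 0 with sex as a covariate or in males only, and 0 to 30 when 1 library was left out. In 1b-/- against WT the 1 call became 33 with no filter, 23 by likelihood ratio, 13 by DESeq2 and 15 with only the compared groups, and 1 to 16 when 1 library was left out. Females against males within 1b+/- gave 5 calls, which became 85 with no filter, 20 by likelihood ratio, 14 by DESeq2 and 5 to 46 when 1 library was left out. In 1b-/- against 1b+/- the 1 call became 0 without either 1b-/- animal and was 1 otherwise. The cause was not tested. Calls on listed genes in 1b+/- against WT were 6, and became 14 with no filter or by likelihood ratio, and 0 with sex as a covariate or in males only, alternatives chosen after seeing the data along with the scaling and omissions applied to the summed members. The log2 fold change of *Krt8* in 1b-/- against 1b+/- turned from 0.01 to -0.0015 with upper quartile scaling, -0.14 by likelihood ratio, -0.16 by DESeq2, -0.0099 with sex as a covariate, -0.16 with only the compared groups and -0.0699 in females only, and ranged from -1.29 to 0.43 when 1 library was left out. On omission of 1 library, *Upk1b* ranged from -0.0928 to 2.30, *Krt18* from -0.39 to 0.97 and *Ppbp* from -0.35 to 0.74. In females against males, *Krt8* turned to -0.0122 with upper quartile scaling, and on omission of 1 library *Msln* ranged from -3.54 to 1.39, *Krt8* from -0.71 to 1.40, *Krt18* from -1.53 to 0.98 and *Serpinb9b* from -4.27 to 1.86. No value of WT over the other 6 could be formed for *Upk3bl* without 1b+/- replicate 3, since the remaining libraries held 0 counts.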

Other observations

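Genes outside the lists also stood at least 4-fold higher in WT with both WT libraries above the other 6. They were chosen after their values were seen and are given as values only. *Krt10*, the keratin of suprabasal skin layers, was at 61.5 and 10.1 CPM in WT and 6.73 to 9.67 CPM elsewhere, so that WT replicate 2 exceeded the highest other library by little. *Anxa1*, a lipid-binding protein of epithelia and immune cells, was at 53.1 and 13.5 CPM in WT and 2.34 to 9.37 CPM elsewhere. *Ppl*, the desmosomal linker periplakin, was at 23.2 and 6.13 CPM in WT and 1.0 to 5.15 CPM elsewhere. *Gabrp*, a GABA receptor subunit found mainly outside the brain, was at 2.23 and 0.766 CPM in WT and 0 to 0.303 CPM elsewhere. Unlike the 9 members, *Otp* (0.496 and 1.38 CPM) and *Wdr72* (1.98 and 2.15 CPM) were higher in WT replicate 2 than in WT replicate 1.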
